A study of Homo sapiens with 60 samples.

Results

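Cytosolic ribosomal protein genes encode the protein parts of the ribosome, the particle that translates messenger RNA. The genes described here are the rows of the deposited gene table whose symbol is RPL or RPS followed by a number, with or without a final A, L or X, together with RPLP0, RPLP1, RPLP2 and RPSA. This rule found 81 of 29744 rows, of which 49 name proteins of the large subunit and 32 proteins of the small subunit. The filter on low counts passed 79 of the 81, 47 large and 32 small, among 11298 genes tested in all. The other two were RPL3L, a muscle paralog of RPL3 with 15 counts over all 60 libraries, and RPL10L, a testis paralog of RPL10 with 12 counts. FAU, which encodes a small subunit protein fused to a ubiquitin-like domain, and the paralogs RPL22L1, RPL26L1, RPL36AL and RPL7L1 lie outside the rule and are described with the companion genes.

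RNA was counted in spheroids of HCT116, an established human colorectal cancer cell line, with 5 libraries in each of 12 groups. In each of 2 media, called Medium 2 and Medium 1 in the labels, spheroids were exposed from day 1 to day 8 to 1 µM butyrate, 0.1 µM hemin, 1 µM kynurenine, 1 µM kynurenic acid, or 0.1 µM hemin mixed with 1 µM kynurenine, and others were left untreated. The culture medium of all groups was DMEM rich in glucose, supplemented with serum, antibiotics and non-essential amino acids. The series design says that spheroids were sampled at once or after 3 h in a nutrient-deprived medium, but the labels do not tie either step to Medium 2 or to Medium 1. Butyrate is a short-chain fatty acid of gut bacteria, hemin is the oxidised iron ring of blood pigment, and the amino acid tryptophan is degraded to kynurenine and on to kynurenic acid. Every library comes from this 1 line, and although the sample titles call the 5 libraries of a group biological replicates, nothing used here says whether separate cultures or days stand behind them, so a p-value here reflects only how these samples spread, which may be technical.

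Making ribosomes is among the costliest activities of a growing cell, and the messenger RNAs for ribosomal proteins are regulated as a group. Most of them begin with a C followed by a run of C and T bases, the 5′ terminal oligopyrimidine or TOP motif, through which the kinase mTORC1 and the RNA-binding protein LARP1 control their translation and stability when nutrients or amino acids change. Ribosomal proteins made in excess of ribosomal RNA are degraded, and a few, such as RPL5 and RPL11, bind the p53 regulator MDM2 when ribosome assembly fails.

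The listed start sites show this motif and apparent exceptions, so the windows of 6 genes on which the results below turn are printed first. Each runs 5′ to 3′ on the strand of the gene, from 10 bases before a RefSeq start site to 20 bases from it, in the GRCh38.p14 build, and capitals mark the unbroken run of C and T that begins with a C at the start base.
RPLP0, chr12:120201092-120201121, minus strand: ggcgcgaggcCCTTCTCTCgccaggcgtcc
RPS10, chr6:34426050-34426079, minus strand: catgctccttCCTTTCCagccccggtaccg
RPL15, chr3:23917122-23917151, plus strand: aaggcattgtgggagtacagctctttcctt
RPL28, chr19:55385922-55385951, plus strand: cctcgccttcCTCTTTCCgtctcaggtcgc
RPL29, chr3:51995876-51995905, minus strand: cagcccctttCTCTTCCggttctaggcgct
RPS27L, chr15:63157458-63157487, minus strand: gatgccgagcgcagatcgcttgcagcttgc
RPLP0 and RPS10 were among the genes with the clearest difference between media. RPL15 was called in every exposure, and none of its 3 listed start sites, of which the last is printed, begins with such a run. The printed RPL15 window does end in a run of C and T that begins with a C, downstream of the listed start. Whether RPL15 counts as an exception therefore depends on the exact start base listed. RPL28 and RPL29 carry the run and were not called between media, and RPS27L has none. A start counted as TOP-like when a C at the start base was followed by at least 4 bases that are each C or T, read on the gene's own strand only. By this count 46 of the 64 members with a listed start site (71.9%) had at least 1 such start, against 5.14% of 27305 genes with a listed start. The share was 71.8% of 39 large subunit genes and 72.0% of 25 small subunit genes. A listed start is an annotation and was not measured in these libraries.

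Levels are given as CPM, counts relative to the library total after scaling by TMM, a factor that aligns the bulk of the genes between libraries. Since each count is the 3′ end of a molecule and does not grow with transcript length, CPM of different genes can be compared. The highest members were RPS27A, which is made as a fusion with ubiquitin, at a mean of 3934 CPM over the 60 libraries, RPL41, the shortest ribosomal protein, at 3835 CPM, and RPS24, a small subunit protein, at 2992 CPM. RPL13A followed at 2890.4 CPM and RPLP1, an acidic protein of the large subunit stalk, at 2609.8 CPM. These 5 genes made up 16.4% of the summed level of the members, and the top 20 made up 47.9%.

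At the other end, RPL28 averaged 133 CPM, RPS26, a small subunit protein near the mRNA exit, 139.6 CPM, RPL29 177 CPM and RPS27L, a p53-inducible paralog of RPS27, 249.5 CPM. RPL39L, a paralog of RPL39 best known from testis, averaged 6.44 CPM. Leaving out RPL39L, the highest mean was 29.6 times the lowest, although the ribosome holds most of these proteins in equal number. The median member stood at 1161 CPM, with 1216 for the large and 985 for the small subunit, against 29.6 CPM for all tested genes. Copies of a gene can take some of its reads, and values that are not whole numbers mark genes whose reads the authors' tool shared with other rows. RPL13A, RPL17, RPL21, RPL23, RPL36A, RPS10, RPS14, RPS26 and RPSA were not whole in any of the 60 libraries, and RPL39 and RPL39L were not whole in 96.7% of them, so the levels of these genes are uncertain.

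All members together took a median of 10.3% of the raw counts in the 30 libraries of Medium 2 (range 9.18 to 12.7%) and 9.15% in the 30 of Medium 1 (7.86 to 10.5%). After scaling, their summed level averaged 110034 ± 10854 CPM in Medium 2 and 88620.1 ± 6595 CPM in Medium 1 (SD, n = 30 each). The libraries of the media overlapped, since the lowest library of Medium 2 (kynurenine, well G6) had 92996 CPM and the highest of Medium 1, also with kynurenine, had 103216 CPM. The large subunit genes summed to 66028 ± 6989 CPM in Medium 2 and 52876 ± 4264 CPM in Medium 1, and the small subunit genes to 44006 ± 4014 CPM and 35744 ± 2563 CPM in the same order of media. The ratio of large to small sums was 1.499 ± 0.0551 in Medium 2 and 1.479 ± 0.0621 in Medium 1, and across the 60 libraries the logarithms of both sums had Pearson's r = 0.96 and Spearman's rho = 0.95, given as a description of libraries that share their scaling.

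By group, the summed level was highest with hemin plus kynurenine in Medium 2, at 117724 ± 14325 CPM, followed in that medium by untreated spheroids (112841 ± 6566), kynurenic acid (111833 ± 10982.5), hemin (108716 ± 3848), kynurenine (106892 ± 16433) and butyrate (102194 ± 4594). Neighbours in this order differed by less than the larger of their SDs. In Medium 1 the order was kynurenine (93588 ± 7176), untreated (92314 ± 4458), butyrate (90209 ± 5178), hemin (86885 ± 6993), kynurenic acid (85836.5 ± 3590.2) and hemin plus kynurenine (82888 ± 7054; SD, n = 5 in each group), again with neighbours closer than the larger of their SDs. By means, hemin plus kynurenine was thus the highest group of Medium 2 and the lowest of Medium 1. By medians it was neither: in Medium 2 its median was 109106 CPM, below untreated (115787) and kynurenic acid (110316), with wells A8 (136489) and H7 (129643) above the rest, and in Medium 1 its median of 84605 was above kynurenic acid (84334) and hemin (84555). In bulk RNA, a change in the number of cells that express a gene and a change in RNA per cell cannot be told apart.

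**Figure D1:**
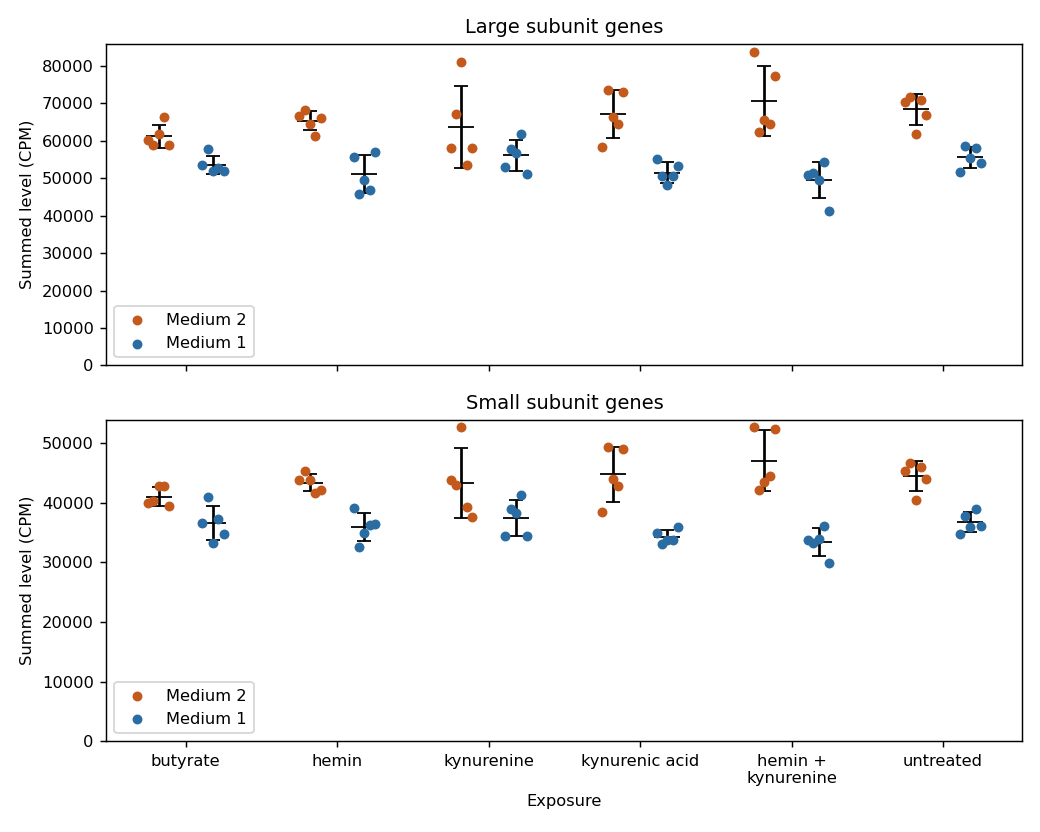
Summed level of the large subunit genes (upper panel) and small subunit genes (lower panel) in CPM, by exposure, with 1 point per library (5 per group), Medium 2 left of Medium 1, and the mean ± SD as bars. Every group mean of Medium 2 is above the mean of Medium 1 with the same exposure, and the hemin plus kynurenine groups are farthest apart, at 70665 CPM in Medium 2 and 49471 CPM in Medium 1 for the large subunit.

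The libraries held 1346147 to 2981629 counts each in Medium 2 (median 1858210) and 1417058 to 3083249 in Medium 1 (median 1915340). Medium 1 libraries filled plate wells A1 to F4 and Medium 2 libraries wells G4 to D8, so plate position and medium cannot be told apart. Rows for nuclear and mitochondrial ribosomal RNA took a median of 5.28% of counts in Medium 2 and 5.37% in Medium 1. This share had a Pearson correlation of -0.01 with the summed member level across the 60 libraries. Of 10 markers of colon epithelium, 7 passed the filter, with a summed level of 1228 to 1603 CPM in Medium 2 and 1241 to 1828 CPM in Medium 1, while VIL1, an epithelial marker, was at 0. Of 7 fibroblast markers 2 passed, with sums of 2.61 to 15.01 CPM and 9.26 to 21.98 CPM in the same order of media, and COL1A2, COL3A1 and LUM were at 0. None of 7 immune, erythroid and endothelial markers in the table passed, with sums of 0.393 to 6.48 CPM in Medium 2 and 0 to 4.98 CPM in Medium 1. The part of these values in the results below was not tested.

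The first comparison asks how the medium moved the ribosomal protein genes when all 6 treatments are averaged, Medium 2 over Medium 1. Almost the whole set was higher in Medium 2 by a small and similar amount. With edgeR's quasi-likelihood test and Benjamini-Hochberg adjustment over all 11298 genes at 0.05, 74 of the 79 tested members were called higher and none lower, against a background of 22.8% of all tested genes called higher and 23.3% called lower. At an unadjusted p below 0.05, for which no share of all genes was computed, 75 members passed. DESeq2 called 72 higher, and its share of all genes is not given here. The background above belongs to the edgeR calls at the adjusted threshold and applies to neither count. The median member log2 fold change was 0.29, a fold of 1.22, against -0.00453 for all tested genes. The large subunit had 43 of 47 called with a median of 0.29, and the small subunit 31 of 32 with a median of 0.28. The median half-width of a member's 95% interval was 0.0945 on the log2 scale. Scaling by library totals in place of TMM moved the median of all genes to -0.12 and that of the members to 0.17. It left 58 members higher and 1 lower, while calls among all genes became 1315 higher and 4162 lower, against 2577 and 2637 with TMM.

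Among large subunit genes, RPLP0, the base of the stalk that recruits elongation factors, had the smallest p. It averaged 2535 ± 260.4 CPM in Medium 2 (lowest 1961, median 2517, highest 3064) and 1883 ± 176 CPM in Medium 1 (lowest 1411, median 1889.9, highest 2170.2; SD, n = 30 each). The log2 fold change was 0.43 with an SE of 0.0373, a fold of 1.35 (edgeR adjusted p = 8.82e-15). The upper part of Medium 1 thus reached into the lower part of Medium 2, and the medians were well apart. RPLP1, its partner in the stalk, was at 2963 ± 302 CPM in Medium 2 and 2256 ± 230 CPM in Medium 1 (log2 fold change 0.39). RPLP2, the other stalk protein, rose by 0.21 (1677 ± 201 CPM against 1451 ± 142 CPM).

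The other large subunit genes with the smallest p were RPL15 with a log2 fold change of 0.42 (2302 ± 240.1 CPM in Medium 2, 1718 ± 181 CPM in Medium 1), RPL9 with 0.45 (2137 ± 276 CPM in Medium 2, 1568 ± 191 CPM in Medium 1), RPL31 with 0.41 and RPL13 with 0.47. RPL13 averaged 2849.9 ± 412 CPM in Medium 2 and 2059.5 ± 237 CPM in Medium 1. RPL9, RPL31 and RPL15 are proteins of the body of the large subunit, and the edgeR adjusted p of these 4 genes lay between 1.76e-13 and 2.47e-12. RPL41 rose by 0.34 (4288 ± 472 CPM in Medium 2, 3383 ± 368 CPM in Medium 1) and RPL3, which lies near the peptidyl transferase centre, by 0.29 (958 ± 163 CPM, against 785 ± 122 CPM).

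Small subunit genes gave the same picture. RPS10, a protein of the head of the subunit, averaged 1454 ± 187 CPM in Medium 2 (lowest 1118, median 1442, highest 1859) and 1112 ± 114 CPM in Medium 1 (lowest 855, median 1139, highest 1340.1). Its log2 fold change was 0.39 (SE 0.0397, edgeR adjusted p = 3.55e-12), and its reads are shared with the read-through row RPS10-NUDT3, so its level is uncertain. RPS23, which sits at the decoding centre, rose by 0.31, RPS24 by 0.38, RPS27A by 0.39, RPS2, near the mRNA entry, by 0.36 and RPS20 by 0.36. The last 5 had edgeR adjusted p between 3.68e-11 and 4.46e-10. RPS24 was at 3386 ± 485 CPM in Medium 2 and 2598 ± 320 CPM in Medium 1, and RPS27A at 4464 ± 558 CPM in Medium 2 and 3403 ± 379 CPM in Medium 1.

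Several members set by name, some with roles outside the ribosome, were called as well. RPL5 rose by 0.18 (1295 ± 226 CPM in Medium 2, 1139 ± 161 CPM in Medium 1) and RPL11 by 0.27 (975 ± 102 CPM, against 808 ± 78.1 CPM). RPL22, which also binds certain viral RNAs, rose by 0.18, and RPSA, also known as a laminin receptor, by 0.29. RPS6, the S6 kinase substrate downstream of mTORC1, rose by 0.26 with 1452 ± 281 CPM in Medium 2 and 1205 ± 150.4 CPM in Medium 1. RPS4X, the X-linked form of RPS4, rose by 0.25 and RPL39, which lines the exit tunnel, by 0.27.

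The other 5 members did not pass this test. The estimates were 0.06 for RPL28 (edgeR adjusted p = 0.543), 0.10 for RPL29 (0.210), 0.10 for RPL21 (0.0652), 0.11 for RPL35 (0.120) and -0.09 for RPS27L (0.131). With scaling by library totals the estimates of RPL28, RPL29, RPL21 and RPL35 were slightly negative and RPS27L was called lower. With TMM, RPS27L was the only tested member with a negative averaged estimate, at 242 ± 26.8 CPM in Medium 2 and 257 ± 39.3 CPM in Medium 1. RPL28 stood at 135 ± 33.6 CPM in Medium 2 and 130.05 ± 31.9 CPM in Medium 1. RPL21 passed in 14 of 70 alternative fits. The 95% interval of the averaged log2 change was -0.0930 to 0.213 for RPL28 and -0.187 to 0.00880 for RPS27L. Both intervals lie below the median member change of 0.29. For RPL28 the average covers estimates of opposite sign, and 3 treatments had a positive one. Its change between media was 0.56 in untreated spheroids (edgeR adjusted p = 0.0635) and -0.46 with kynurenic acid, neither of them called. The small average therefore does not show that RPL28 was unmoved by the medium within each treatment.

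The largest estimate, 0.90, belonged to RPL39L (8.32 ± 3.75 CPM in Medium 2, 4.56 ± 2.47 CPM in Medium 1, edgeR adjusted p = 0.000159), whose count is low and shared with other rows. RPL34, RPL13, RPL17 and RPL9 followed with 0.49, 0.47, 0.46 and 0.45. Across the 78 other members the mean log2 level and the change had Pearson's r = 0.54 and Spearman's rho = 0.54, a description over genes of the same libraries. The 41 members that were whole in every library had a median change of 0.25 with 38 called, and the 38 that were not whole in at least some had 0.34 with 36 called. The 46 members with a TOP-like start had a median change of 0.27 with 42 called. The 17 tested members whose listed starts lack it had 0.29 with 16 called. This split rests on the exact start base listed. Of the 17, RPL15, RPL10A, RPL4, RPL9 and RPS26, among others, have such a run downstream of a listed start. The split therefore does not contrast genes that have the motif with genes that lack it.

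**Figure D2:**
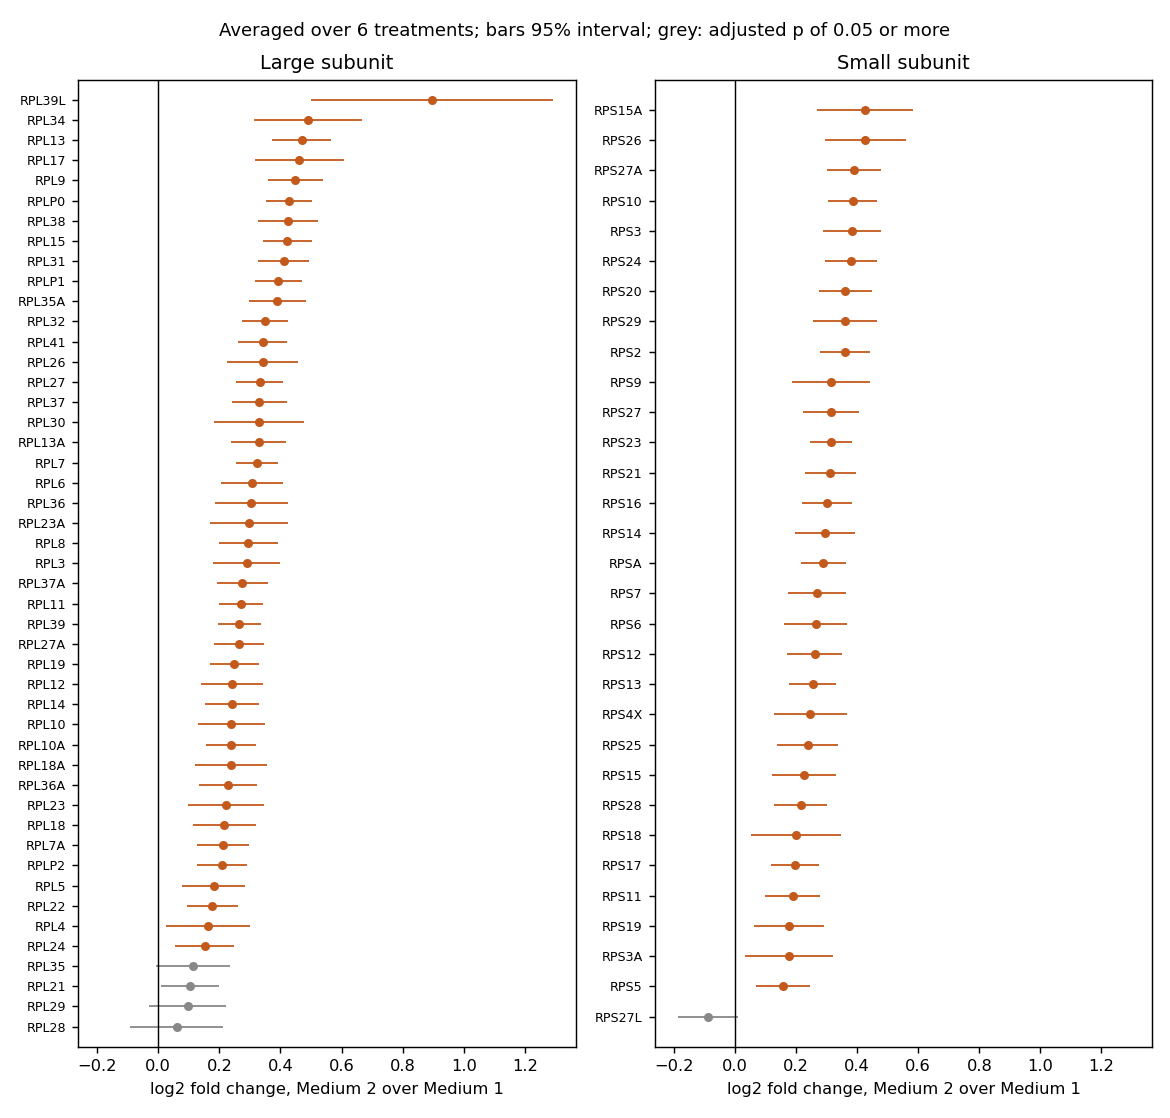
Log2 fold change of the tested members other than 1 not reported here, Medium 2 over Medium 1 averaged over the 6 treatments, for the large subunit (left) and small subunit (right), with 95% intervals from edgeR; grey marks an adjusted p of 0.05 or more. Nearly all points lie between 0.15 and 0.5, RPL39L stands at 0.90 with a wide interval, and the 5 grey genes are RPL28, RPL29, RPL21, RPL35 and RPS27L.

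The second set of comparisons asks whether the medium moved these genes under each treatment on its own, with 5 libraries against 5 and the same fit across all 60. The number of members called higher differed widely, and all calls but 1 were in the same direction. With hemin plus kynurenine 66 of 79 were called higher (background 8.02%), with kynurenic acid 42 (background 4.3%), with hemin 37 (background 12.6%), in untreated spheroids 20 (background 2.69%), with butyrate 11 (background 4.51%) and with kynurenine 7 (background 3.73%). A single call was lower, RPS27L with hemin, where 11.4% of all genes were lower. The median member log2 changes in the same order of treatments were 0.49, 0.36, 0.27, 0.28, 0.15 and 0.18. For a single member the median half-width of the 95% interval was 0.231 in each treatment. The differences between treatments in the size of the change are tested further on. The counts depended on single libraries, with 10 in untreated spheroids without well A1 or B5, 4 with butyrate without G5, 4 with kynurenine without A3 or H2, and 25 with kynurenic acid without D7. They also depended on scaling, since library totals gave 14 higher and 1 lower with kynurenic acid, 20 higher and 3 lower with hemin, and 5 higher in untreated spheroids, 3 with butyrate and 3 with kynurenine. Shares of all genes in these other fits are not given here, so the shifts are not a result about the members in particular.

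In hemin plus kynurenine, all 5 libraries of Medium 2 were above all 5 of Medium 1 in 66 members (background 5.87%), 37 large and 29 small. That count was 34 in untreated spheroids (3.99%), 30 with kynurenic acid (4.57%), 23 with hemin (6.88%), 14 with butyrate (3.85%) and 4 with kynurenine (2.32%). No member had all 5 libraries of Medium 2 below all 5 of Medium 1 in any treatment. Of the 79 tested members, 53 had a positive estimate in all 6 treatments.

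RPL15 was the one member called in all 6 treatments, with log2 changes of 0.63 with hemin (edgeR adjusted p = 4.51e-06), 0.42 with kynurenic acid, 0.37 untreated, 0.36 with kynurenine, 0.43 with hemin plus kynurenine and 0.32 with butyrate. With hemin its libraries had 2080.3, 2653, 2518, 2114 and 2840.0 CPM in Medium 2, against 1591, 1352, 1545, 1555 and 1826 CPM in Medium 1. With kynurenine they had 2208, 2372, 2388, 2287 and 2226 CPM in Medium 2, against 1596, 1935, 1689, 1621 and 2080.1 CPM in Medium 1. In both treatments the lowest library of Medium 2 was above the highest of Medium 1. With kynurenic acid a single Medium 1 library, well A4 at 2038 CPM, was above the lowest of Medium 2 at 2028 CPM. Over 21 alternative fits per treatment, the call of RPL15 was lost in 7 with butyrate (adjusted p up to 0.0909) and in 1 with kynurenine.

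RPLP0, RPL31, RPL38, RPL7, RPS10, RPS2, RPS24 and RPS3 were called in 5 of the 6 treatments. Most of these genes had calls that did not hold in all of the 21 alternative fits: RPS3 with butyrate was lost in 16, RPS10 with kynurenine in 13, RPL7 with butyrate in 12 and RPS2 untreated in 9. RPLP0 kept its 5 calls in all of them. Untreated spheroids had 2469.6, 2818, 2400.3, 2449 and 2509 CPM of RPLP0 in Medium 2, against 1666, 1926, 2058, 2101 and 1957 CPM in Medium 1, without overlap (log2 change 0.38, SE 0.0915, edgeR adjusted p = 0.00434). With kynurenine RPLP0 had 2494, 2525, 2759.8, 1961 and 2174 CPM in Medium 2, against 1862, 2170.2, 2057, 2119 and 1882 CPM in Medium 1, and the groups overlapped (log2 change 0.24, adjusted p = 0.0913). RPL21, RPL28, RPL29, RPL39L and RPS27L were called higher in none of the treatments, and 27 members were called higher in 1 of them.

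The treatments had different members in front. In untreated spheroids, RPL39 (0.35), RPLP1 (0.39), RPL32 (0.36) and RPL31 (0.37) stood beside RPLP0 and RPL15 as the smallest p. With butyrate these were RPLP0 (0.33, edgeR adjusted p = 0.0129), RPS2 (0.36), RPS29 (0.45), RPL9 (0.38), RPL37 (0.37) and RPL15. With kynurenine they were RPS24 (0.42, edgeR adjusted p = 0.00696), RPS27A (0.43), RPL15, RPSA (0.32), RPS3 (0.39) and RPL31 (0.34). With kynurenic acid they were RPLP0 (0.53, edgeR adjusted p = 5.01e-05), RPS24 (0.55), RPS10 (0.51), RPL31 (0.51), RPL32 (0.45) and RPL13 (0.58). RPS3 is a small subunit protein at the mRNA entry that also takes part in DNA repair, and RPS29 is a zinc-binding protein of the small subunit head. That a member was called with one compound and not with another does not show that the compounds differ.

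With hemin the smallest p after RPL15 belonged to RPL38 (0.70), a large subunit protein known from mouse for selective translation of Hox mRNAs, RPL9 (0.62), RPL41 (0.56), RPLP0 (0.51) and RPL6 (0.70). RPS27L, the gene called lower there, had 232, 219, 235, 234 and 226 CPM in Medium 2, against 229.8, 341, 311, 332 and 229 CPM in Medium 1. Medium 2 was tight and Medium 1 split into 2 libraries near the Medium 2 values and 3 above them (log2 change -0.33, edgeR adjusted p = 0.0367). This call was lost in 12 of 21 alternative fits (adjusted p 0.00299 to 0.148). RPS3A, a small subunit protein, had the most negative estimate with hemin, -0.41, which did not pass (edgeR adjusted p = 0.083).

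With hemin plus kynurenine the smallest p belonged to RPL32 (0.63, edgeR adjusted p = 1.63e-06), RPL31 (0.68), RPS20 (0.70), RPS10 (0.62), RPLP0 (0.57) and RPL36 (0.91). RPL36 had 1306, 749.8, 889.6, 791 and 1128 CPM in Medium 2, against 544, 544, 504, 589 and 409.5 CPM in Medium 1. The lowest Medium 2 library was above the highest of Medium 1, and wells A8 and H7 were above the other three. RPS3A rose by 0.87 here, with 1845, 1047, 1235, 1328 and 1686 CPM in Medium 2, against 802, 692, 746, 818 and 839.8 CPM in Medium 1, and RPL26, which lies near the exit of the tunnel, rose by 0.85.

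**Figure D3:**
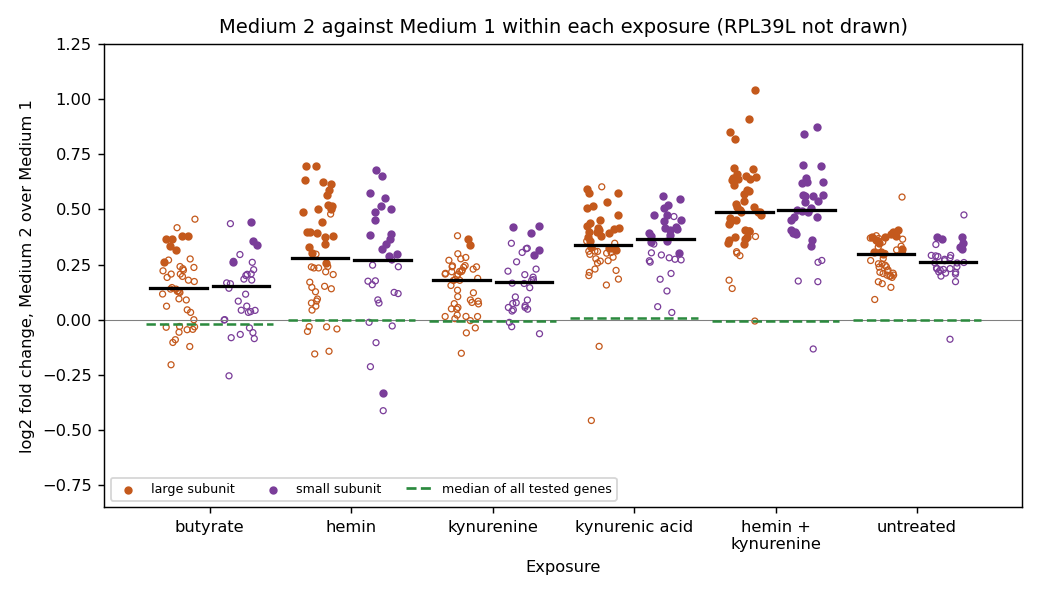
Log2 fold change of each tested member other than RPL39L, Medium 2 over Medium 1, within each exposure; filled points passed an adjusted p of 0.05, black bars are medians of the large (orange) and small (purple) subunit genes, and the green dashed line is the median of all tested genes. The medians of both subunits lie above the green line in every exposure while some members lie below it, with medians over all members between 0.15 with butyrate and 0.49 with hemin plus kynurenine.

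The third set asks whether an exposure moved the genes within a medium. It found no called member in any of 10 comparisons with untreated spheroids by edgeR, and few calls among all genes. In Medium 2, the background of calls in either direction was 0% with butyrate, 0% with hemin, 0.0266% with kynurenine, 0.0177% with kynurenic acid and 0.558% with hemin plus kynurenine. In Medium 1 it was 0.00885%, 0.133%, 0.0354%, 0% and 0.0266% in the same order of exposures. At an unadjusted p below 0.05, 9, 6, 5, 5 and 6 members passed in Medium 2 and 2, 19, 0, 3 and 23 in Medium 1, again in that order. The share of all genes at that cutoff was not computed, so these counts are not a result about the members in particular. DESeq2 called none, except 3 members lower with hemin in Medium 1. The 5 exposures of a medium share its 5 untreated libraries, so their estimates are not independent of each other.

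The estimates leaned low in some groups without passing. With butyrate in Medium 2 the median member log2 change was -0.16, and 77 of 79 estimates were negative. With hemin plus kynurenine in Medium 1 the median was -0.16 with 73 negative, and with kynurenic acid in Medium 1 it was -0.11 with 70 negative. The other medians were -0.10 with hemin, -0.12 with kynurenine, -0.03 with kynurenic acid and 0.06 with hemin plus kynurenine in Medium 2, and -0.04 with butyrate, -0.08 with hemin and 0.03 with kynurenine in Medium 1.

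RPS15A, a small subunit protein, came closest with hemin in Medium 1. It had 538, 386, 466, 285 and 588 CPM with hemin, against 675, 642, 773, 702 and 784 CPM in untreated spheroids, without overlap (log2 change -0.66, SE 0.194, edgeR adjusted p = 0.0637). RPL38 (-0.37, adjusted p = 0.0789) and RPL9 (-0.33, adjusted p = 0.0790) followed by edgeR. Without the Medium 1 hemin library in well G2, 10 members were called in this comparison, 8 of them lower. The share of all genes called in that fit is not given here. With hemin plus kynurenine in Medium 2, RPS3A had an estimate of 0.55 (adjusted p = 0.130) and RPL26 one of 0.41 (adjusted p = 0.156). With that mixture in Medium 1, RPL11 had -0.26 (adjusted p = 0.917).

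RPL28 had estimates of opposite sign in the 2 media with kynurenic acid. Its libraries had 117, 148, 112, 96.3 and 109.96 CPM in Medium 2 with kynurenic acid, against 154, 139, 111, 147 and 211 CPM untreated. In Medium 1 they had 112, 188, 181, 192 and 127 CPM with kynurenic acid, against 114, 91.8, 91.1, 125 and 96.9 CPM untreated. The groups overlapped in both media. The estimates were -0.39 in Medium 2 and 0.62 in Medium 1, neither past the threshold (edgeR adjusted p = 0.599 and 0.999).

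**Figure D4:**
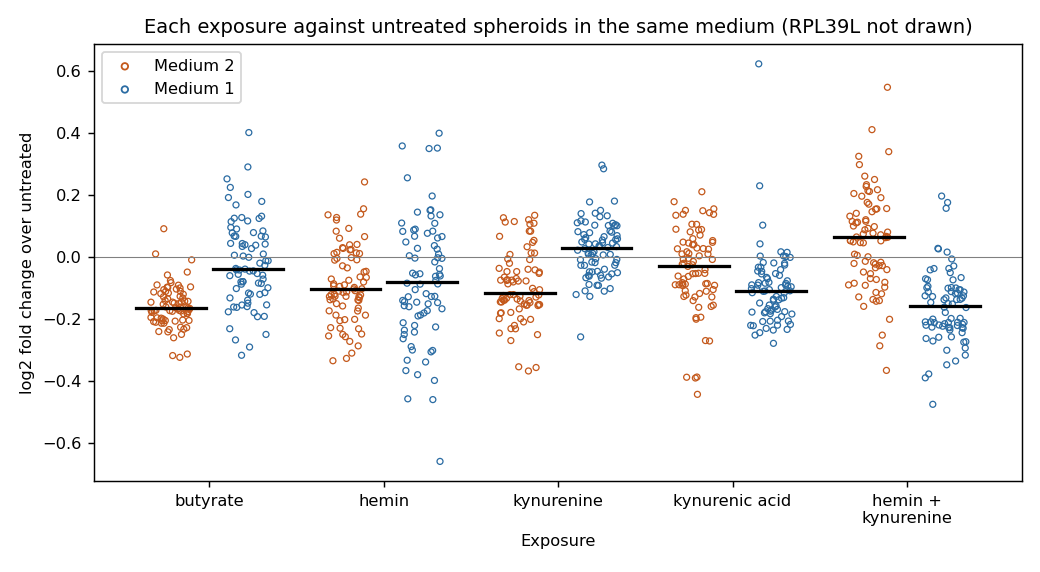
Log2 fold change of each tested member other than RPL39L, exposure over untreated spheroids of the same medium, with Medium 2 (orange) left of Medium 1 (blue); open points did not pass an adjusted p of 0.05 and black bars are medians. No point is filled, and the medians run from -0.16 to 0.06.

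The difference between media in the response to each exposure was tested directly, as the response in Medium 2 minus that in Medium 1. No member was called by edgeR or DESeq2, with backgrounds of 0% for butyrate, 0% for hemin, 0.0177% for kynurenine, 0% for kynurenic acid and 0.0266% for hemin plus kynurenine. At an unadjusted p below 0.05 the counts by edgeR were 6, 5, 2, 1 and 22, again without a share of all genes beside them. The median differences were -0.12, 0.01, -0.13, 0.08 and 0.22. For hemin plus kynurenine 70 of 79 differences were positive, led by RPL26 with 0.63 (edgeR adjusted p = 0.320) and RPL36 with 0.64 (adjusted p = 0.349). The largest single difference by p was RPL28 with kynurenic acid, -1.01 (95% interval -1.55 to -0.479, edgeR adjusted p = 0.874). The counts of 66 called members with hemin plus kynurenine and 20 in untreated spheroids therefore do not come with a called difference for any member, and the median half-width of these intervals was 0.327.

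Kynurenic acid is formed from kynurenine by transamination and ring closure, and the 2 compounds were given at the same dose of 1 µM over the same days, which allows 2 direct comparisons, kynurenic acid over kynurenine in each medium. No member was called by edgeR or DESeq2, against 0.00885% of all genes in Medium 2 and 0.0354% in Medium 1. At an unadjusted p below 0.05, 2 members passed in Medium 2 and 5 in Medium 1, again without a share of all genes. The median member difference was 0.06 in Medium 2 and -0.13 in Medium 1. RPLP0 had 2408, 3064, 2734, 2535 and 2873 CPM with kynurenic acid in Medium 2, against 2494, 2525, 2759.8, 1961 and 2174 CPM with kynurenine, and the groups overlapped (log2 difference 0.19, 95% interval 0.00970 to 0.375, edgeR adjusted p = 0.803). In Medium 1 its difference was -0.10 (95% interval -0.283 to 0.0825). Intervals of this width do not show that the compounds act alike.

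Libraries of 1 group varied together in these genes. After removing group means, the median within-group SD of a member was 0.183 on the log2 scale (0.121 to 0.386, RPL39L left out), against 0.197 for 1451 other tested genes at the same levels. Of 3003 pairs of members, 2571 had a correlation above 0 over the 60 libraries, with a median r of 0.48, and 73 of 78 members had a positive r with the mean of the others. Correlations were not computed for other genes at the same levels, so these counts are not a result about the members in particular. The mean over members was high in wells F6 (kynurenine, Medium 2, mean deviation 0.37) and A8 (hemin plus kynurenine, Medium 2, 0.23) and low in G6 (kynurenine, Medium 2, -0.22), C7 (kynurenic acid, Medium 2, -0.20) and F4 (hemin plus kynurenine, Medium 1, -0.19). Single members went the other way, such as RPL28 with -0.33 in F6 and 0.26 in F4.

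Some of the most variable members, picked after their values were seen, moved together. RPL34 had a within-group SD of 0.386, RPS15A 0.339, RPL30 0.317 and RPL17 0.311, with r of 0.92 between RPS15A and RPL30, 0.88 between RPL34 and RPL30 and 0.85 between RPL34 and RPS15A (0.88 over the 30 libraries of Medium 2 and 0.82 over those of Medium 1). RPS3A, with an SD of 0.294, varied with RPS19 (r = 0.89), RPL26 (r = 0.84) and RPL5 (r = 0.84). RPS27L ran against RPL17 (r = -0.76), RPS15A (r = -0.72), RPL34 (r = -0.67) and RPL30 (r = -0.61). It also had r = -0.55 with the mean of the other members. RPL28, with an SD of 0.308, had r = -0.56 with RPL34, and RPS18, with an SD of 0.311, belonged to none of the pairs named here. RPL39L, with the largest SD of 0.747, had r = 0.86 with RPS15A and 0.27 with its paralog RPL39. These values share libraries, scaling and in part reads, and come without a test.

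**Figure D5:**
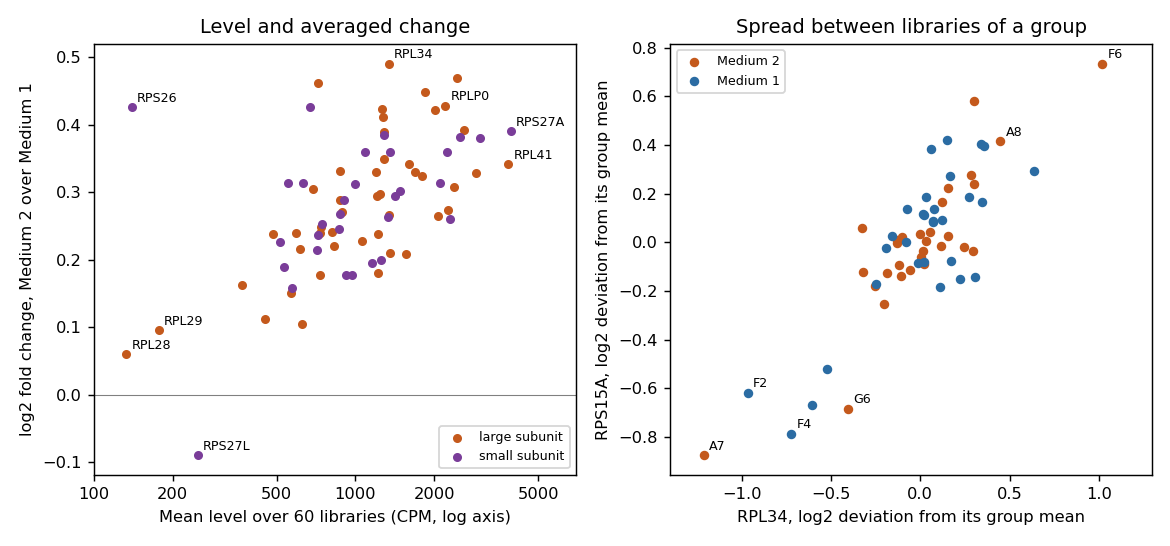
Left, mean level over 60 libraries in CPM (log axis) against the averaged log2 change of the tested members other than RPL39L and 1 not reported here, large subunit in orange and small in purple. Right, deviation of RPS15A from its group mean against that of RPL34, in log2 units, 1 point per library with 6 wells named. The low RPL28, RPL29 and RPS27L have the smallest changes on the left while RPS26, also low, has 0.43, and on the right the libraries lie along a rising line (r = 0.85).

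The companion genes place these values beside the rest of the translation machinery, for Medium 2 over Medium 1 averaged over treatments, with the same background of 22.8% higher and 23.3% lower. Of 9 tested fusions and paralogs outside the rule, 7 were called higher and none lower, with a median of 0.24, among them FAU (0.22) and the read-through rows RPL36A-HNRNPH2 (0.47) and RPS10-NUDT3 (0.28), which share reads with members. The paralogs RPL26L1 (0.33) and RPL22L1 (0.22) were also called higher. RPL36AL (0.11, edgeR adjusted p = 0.149) and RPL7L1 (-0.11, edgeR adjusted p = 0.191) were not called. Of 23 elongation factors and other TOP mRNAs, 17 were higher and 2 lower with a median of 0.21. TPT1, a classic TOP mRNA for a growth-related protein, rose by 0.45, EEF1B2, an elongation factor subunit, by 0.38, and HNRNPA1, an RNA-binding protein, by 0.29, while EIF4A2, an initiation factor helicase, fell by 0.68 on the log2 scale. HNRNPA1 was not whole in any library and TPT1 was not whole in 98.3% of them, so their levels are uncertain.

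Genes that make ribosomes without being part of them were more mixed. Of 31 tested ribosome biogenesis genes 10 were higher and 6 lower with a median of -0.02, including NPM1, a nucleolar chaperone (0.28), UTP15, a processome subunit (0.46), POLR1B, a subunit of RNA polymerase I (0.42), and NOP56, a box C/D snoRNP protein (-0.38). Of 16 chaperones and assembly partners 7 were higher and 2 lower (median 0.08), with BTF3 (0.32) and NACA (0.34), which form the nascent chain complex, and NAP1L1, a histone chaperone (0.32), among the higher. The lists overlap, since BTF3, NACA, NAP1L1 and NPM1 were also counted among the TOP mRNAs. NPM1, NACA and NAP1L1 were not whole in any library, so their levels are uncertain. Of 18 regulators of TOP mRNA translation 4 were higher and 3 lower (median 0.01), neither share above the background. DDIT4 (2.53) and SESN2 (0.77), stress-induced inhibitors of mTORC1, were higher, and MTOR (-0.25) and LARP1 (-0.21) were lower. TSC1, another inhibitor of mTORC1, was called lower (-0.42), and LARP4 was called higher (0.26).

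The mitochondrial ribosome and the proteasome served as a yardstick. Of 74 tested mitochondrial ribosomal protein genes, 20 were higher and 5 lower (median 0.06), with 0.33 for MRPL21, 0.33 for MRPL49 and 0.25 for MRPS18B, and -0.55 for MRPS31. Of 14 proteasome core genes 7 were higher and none lower (median 0.14), led by PSMB5 (0.29). No test was made of the difference between these lists and the ribosomal protein genes.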

How the data were processed

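Libraries were QuantSeq 3′ FWD with unique molecular identifiers, from 48 ng of RNA and 18 PCR cycles, per the labels' protocols. The deposited table holds estimated counts per gene made by the authors. The submitters' processing notes name Salmon 1.5.2, STAR, cutadapt 3.4, UMI-tools 1.1.2 and FastQC 0.11.9 with GRCh38. The annotation was not given in the sources used here, nor was the treatment of reads that match several genes. The labels name the molecule cytoplasmic RNA, and 1 field calls all 60 samples untreated and nutrient-rich, so groups were taken from titles.

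Estimated counts, not whole in 10.1% of values (tolerance 0.0005), were rounded. Genes were kept by filterByExpr (minimum count 10, minimum total 15), libraries scaled by TMM, and 1 quasi-likelihood model with 12 group means fitted to all 60 libraries (edgeR 4.0.16, limma 3.58.1, R 4.3.3; DESeq2 1.42.0 as an alternative), which left 48 residual degrees of freedom. Two-sided tests gave 24 contrasts, each adjusted by Benjamini-Hochberg over 11298 genes. The steps were tested on simulated data. Means ± SD are CPM over libraries. No 2 libraries of a group agreed within sampling noise (chi-square per degree of freedom 2.21 to 20.8 over 120 pairs).

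The members and lists were chosen with earlier results of these data known. Genes named are, for the medium average, the 6 of each subunit with the smallest p and all that did not pass, up to 6 per direction in other contrasts, the 3 highest and 3 lowest of each subunit, 15 genes set by name and up to 4 per companion list. Others were picked after values were seen: RPL7, RPL15, RPL17, RPL30, RPL34, RPS15A, RPS3A, RPS19, RPL26, RPL38, RPLP2, RPL10A, RPL4, TSC1 and LARP4. Start sites are RefSeq's for GRCh38.p14. Alternatives covered scaling, filtering, the tool, plate row, own-group fits and each library left out. Values of 1 member and of 1 companion gene are not reported here by name.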

Additional observations from a re-analysis of the deposited data

Results flagged for a closer look

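Over 23 features, which were named members and the summed levels of each subunit, 276 groups of 5 libraries were examined. In 21 of them 1 library stood apart from the other 4 by Dixon's criterion at 95%, while chance gives about 1 in 20. The causes were not tested.

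In Medium 2, well F6 (kynurenine) stood high in RPS3A, with 1593 CPM against 764 to 929.7 CPM in the others, and in RPL26, with 2541 CPM against 1491 to 1739 CPM. Well G5 (butyrate) stood high in RPL3 (1068 CPM, others 786 to 843) and RPL39L (14.2 CPM, others 6.19 to 7.87). Other Medium 2 libraries were B5 (untreated) in RPLP0 (2818 CPM, others 2400.3 to 2509), E6 (hemin) in RPL39L (15.4 CPM, others 6.04 to 7.95), A8 (hemin plus kynurenine) in RPS15A (1102 CPM, others 728 to 813) and A6 (hemin), which was low in RPS27A (3974 CPM, others 4587 to 4699).

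In Medium 1, well B2 (butyrate) stood high in RPS4X (1409.7 CPM, others 650.2 to 866), RPL5 (1501 CPM, others 1068 to 1136), RPL11 (981 CPM, others 799 to 824) and the summed large subunit level (57688 CPM, others 51963 to 53527). Well H3 (kynurenic acid) stood high in RPL5 (1242 CPM, others 979 to 1043) and RPS6 (1320.8 CPM, others 1029 to 1082). RPL26 was high in B1 (untreated, 1768 CPM, others 1318 to 1435) and in C2 (hemin, 2218 CPM, others 1242 to 1463), RPL15 in A4 (kynurenic acid, 2038 CPM, others 1567 to 1684) and RPS27L in G1 (butyrate, 312 CPM, others 236 to 249). RPLP0 was low in F4 (hemin plus kynurenine, 1411 CPM, others 1819.7 to 1984), RPL39 in D2 (hemin, 1073 CPM, others 1197 to 1245) and RPS27A in A3 (kynurenine, 2775 CPM, others 3389 to 3552).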

How the results depend on the processing

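The averaged comparison of the media kept its direction under all settings: 59 to 75 members were called over the alternatives and 72 to 76 with 1 library left out. Of the 74 called members, 58 passed in every alternative. Scaling by library totals gave 59 calls (58 higher and RPS27L lower) and a member median of 0.17, while it moved the median of all genes to -0.12 and the calls among all genes to 1315 higher and 4162 lower, from 2577 and 2637. Under it, the estimates of RPL21 (-0.0107), RPL28 (-0.0548), RPL29 (-0.0187) and RPL35 (-0.0045) turned negative. RPL4 and RPS3A also lost their call in other settings, and RPL21 gained one in 14 of 70, of which 12 left out 1 library. The ratio of summed levels, Medium 2 over Medium 1, was 1.249 for the large subunit (1.15 to 1.26 over alternatives) and 1.23 for the small (1.14 to 1.24).

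Counts within a treatment moved more. Shares of all genes called in these fits are not given here, so the moves are not a result about the members in particular. Scaling by library totals gave 5 in untreated spheroids, 3 with butyrate, 23 with hemin (20 higher, 3 lower), 3 with kynurenine and 15 with kynurenic acid (14 higher, 1 lower). With no filter the counts were 13 untreated, 7 with butyrate and 4 with kynurenine. With plate row as a term they were 4 with butyrate and 3 with kynurenine. Fitting only a comparison's own groups gave 45 untreated and 0 with kynurenine (12 at an unadjusted p below 0.05). Without the 5 libraries farthest in summed level, an alternative chosen after seeing the data, kynurenine gave 3. With 1 library left out, counts ran from 10 to 24 untreated (10 without A1 or B5, 12 without A5, 13 without C1 or E1), 4 to 12 with butyrate (4 without G5, 5 without H1, 6 without G1, 7 without F5), 4 to 10 with kynurenine (4 without A3 or H2), 25 to 49 with kynurenic acid (25 without D7, 26 without G7) and 55 to 66 with hemin plus kynurenine.

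Hemin against untreated in Medium 1, with no call in the report, gave 1 with no filter, 1 in its own groups, 3 with DESeq2, 3 without wells A7 and B2 and 2 without the 5 farthest libraries (both chosen after seeing the data), and 0 to 10 with 1 library left out (10 without G2, of which 8 lower). Its difference between media gave 0 to 1 (1 without G2). Shares of all genes in these fits are not given here. RPS15A there passed in 6 of 21 alternatives (-0.77 to -0.52, adjusted p 0.0137 to 0.227), and RPS27L with hemin lost its call between media in 12 of 21 (-0.51 to -0.26, adjusted p 0.00299 to 0.148). The cause was not tested. No paired analysis was possible because the columns carry plate wells and no replicate number. At these depths, differences under about 0.231 on the log2 scale are within a member's interval for 5 libraries against 5.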
